A study of Mus musculus with 17 samples.

Results

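The collagen chain genes were taken as every gene row whose symbol matched the pattern "Col", a number, "a" and a number. The pattern found 44 of the 48440 genes in the deposited table, each with 1 row and each present under the same symbol in the GENCODE M21 annotation. They were split by type into 11 fibrillar chains, 6 basement membrane chains of collagen IV and 27 other chains. A total of 28 of the 44 had a mean normalized count of at least 10 over all libraries and entered the tests: 8 fibrillar, 5 basement membrane and 15 other chains. The count of tested genes of all kinds was 14588.

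Liver RNA was sequenced in 17 libraries. The miR-29 transgenic (TG) group held 6 libraries of mice aged 2 months. Wild-type (WT) liver of B6 mice, the common black inbred laboratory strain, gave 5 libraries at 2 years and 6 at 2 months. The labels give neither the promoter that drives the transgene, nor the strain background or number of lines of the transgenic mice, nor which miR-29 member it encodes. The labels name no treatment, and the tissue of every group is liver. The libraries were made in batches with different kits. Batch A (Illumina TruSeq polyA, University of North Carolina) held TG replicates 1 to 3, 2-year replicates 1 to 3 and 2-month WT replicates 1 to 4, and batch B (NEBNext Ultra II Directional, Cornell) held the other 7, all male. Females were TG replicate 3, 2-year replicates 1 and 2 and 2-month WT replicates 3 and 4. The labels do not say that each library is a separate animal, so p-values measure the spread between these libraries. Hepatocyte markers were abundant in every library, with a summed level of at least 1889690 normalized counts over 7 genes.

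Collagens are the main proteins of the extracellular matrix. Chains assemble in threes into triple helices, which pack into fibrils (collagens I, III and V), form sheet-like networks under epithelia and endothelia (collagen IV) or link fibrils, basement membranes and cells (most of the others). In liver, stellate cells and portal fibroblasts make most of the fibrillar collagen and raise it in fibrosis. MiR-29 is a microRNA family known to lower collagen and other matrix messages by pairing through its seed with sites in their 3′ untranslated regions (3′ UTRs), and its loss in stellate cells accompanies fibrosis. Bulk tissue cannot tell fewer cells of a type from less collagen RNA per cell.

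The mature miR-29 strands are shown because the 7 bases in capitals, positions 2 to 8 from the 5′ end, are the seed that all 3 share (RefSeq, GRCm38.p6):
miR-29a-3p: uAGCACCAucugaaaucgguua
miR-29b-3p: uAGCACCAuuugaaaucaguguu
miR-29c-3p: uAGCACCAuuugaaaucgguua
The 4 genes that encode these strands had a value of 0 in each of the 17 libraries, and the product of the transgene was not checked here. The match to the seed, TGGTGCT on the strand of the message, was looked for in every gene's 3′ UTR, taking the longest one annotated.

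The following 30-base windows hold that match in capitals, written in the direction of the message (GRCm38, the assembly that mm10 names). They are chosen to set the 3 chains with a site that were lower in transgenic liver beside 3 chains with the same 7 letters that did not pass the test.
Col1a1 (chr11:94952517-94952546, plus strand): ggtggggtgggaaggaatttcTGGTGCTat
Col5a3 (chr9:20770502-20770531, minus strand): ccacccctccaccaggcctttTGGTGCTat
Col27a1 (chr4:63333899-63333928, plus strand): tacctcccactgtgaaatcgcTGGTGCTca
Col3a1 (chr1:45348961-45348990, plus strand): tccaacttcaaaatgtctcaaTGGTGCTat
Col4a1 (chr8:11199760-11199789, minus strand): gcctctgccaccgtcacaacaTGGTGCTac
Col4a5 (chrX:141688232-141688261, plus strand): ctttaccactgctcccaccaaTGGTGCTaa
In 5 of these 6 windows the match was followed by A, the base that lies opposite the first base of the microRNA, and in Col27a1 it was followed by c. The single windows of Col1a1, Col27a1, Col3a1 and Col4a1 are their only matches, while Col5a3 and Col4a5 had 3 matches each. Only 1 of the 3 Col5a3 matches, the one shown, was followed by A, against all 3 of Col4a5.

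One chain dominated the collagen RNA of these livers. Col18a1, the core protein of a basement membrane proteoglycan and the source of endostatin, is made by hepatocytes and took 60.64% to 89.35% of the summed collagen chain signal of a library (median 78.7%). Per kilobase of its longest transcript, Col18a1 averaged 3738 ± 1379 normalized counts in TG, 4390 ± 1522 in 2-year WT and 3531 ± 1442 in 2-month WT livers (SD, n = 6, 5 and 6). Col14a1, a fibril-associated chain, was next in TG liver at 119 ± 54.8 per kilobase, with 166 ± 73.8 in 2-year WT and 190.5 ± 86.4 in 2-month WT liver. Below Col18a1 the order was close: in TG and in 2-year WT liver Col14a1, Col4a1 and Col3a1 followed each other at distances smaller than the larger SD of each pair. In 2-month WT liver Col3a1, the chain of the reticular fibril collagen III, ranked 2 at 208 ± 64.1 per kilobase, while in TG liver it ranked 4, behind Col14a1 and Col4a1. Col5a3 was at 32.2 ± 19.9 per kilobase in TG liver and ranked 9, against 129.8 ± 92.1 and rank 4 in 2-month WT liver. Col27a1 was at 28.6 ± 23.1 and ranked 10 in TG liver, against 115 ± 61.6 and rank 5 in 2-month WT liver.

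Of the 16 chains below the limit, 3 were fibrillar (Col2a1, Col11a1 and Col24a1), 1 was a basement membrane chain (Col4a6) and 12 belonged to other types. Col26a1 was listed at 0 in all 17 libraries, and Col2a1 and Col19a1 were above 0 in 1 library each. Col9a3 was above 0 in all 17 libraries, with a highest value of 16.1 normalized counts. The highest single value among the 16 was 36.7, for Col22a1 in 2-month WT replicate 6. Among the 28 that were tested, Col6a5, Col6a6, Col4a4 and Col23a1 had TG means under 10 and passed through wild-type libraries, and Col7a1 had a 2-month WT mean under 10 and passed through the other groups, so counts over the 28 do not stand for all 44.

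The first comparison set TG against WT liver at 2 months, the contrast that the transgene defines. Of the 28 measured chains 5 fell and none rose at an adjusted p under 0.05 (limma, terms for batch and sex, adjusted over all 14588 genes), which is 17.9% of the chains. Over all tested genes 3.83% fell and 2.89% rose, together 6.71%. The 5 that fell were the fibrillar chains Col27a1, Col5a3 and Col1a1 and the collagen VI chains Col6a5 and Col6a6. Col6a5 and Col6a6 entered the tests through wild-type libraries, which favoured a fall. At an unadjusted p under 0.05, 13 of the 28 differed, 9 lower and 4 higher, beside 21.2% of all tested genes. The log2 fold change was below 0 for 16 of the 28 chains, beside 49.5% of all tested genes. The median over the 28 was -0.28, with -0.70 in batch A and 0.10 in batch B, beside 0.0058 for all genes. No chain had all TG libraries below every young WT library, or all above, as 1.84% (lower) and 1.11% (higher) of all tested genes did. Col12a1 was split, with 2 TG libraries below every young library and 4 above. The class medians were -1.27 for fibrillar, 0.03 for basement membrane and -0.36 for the other chains.

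**Figure D1:**
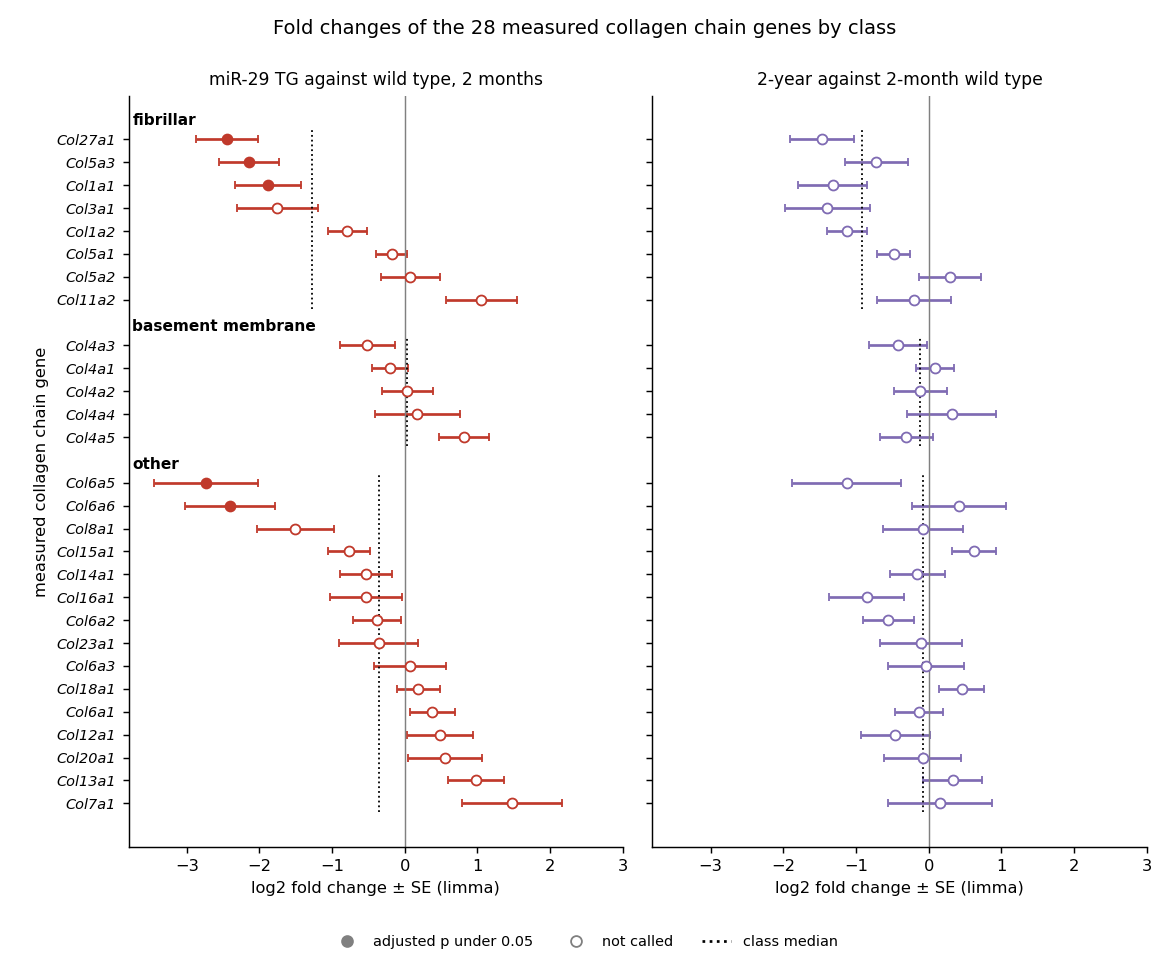
Log2 fold changes (points) with standard errors (bars) from the limma fit for the 28 measured collagen chain genes, ordered within class, for TG against WT liver at 2 months (left) and 2-year against 2-month WT liver (right). Filled points have an adjusted p under 0.05 and dotted lines are class medians: the fibrillar medians lie at -1.27 and -0.92, the basement membrane medians at 0.03 and -0.12.

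Among the fibrillar chains 3 of 8 fell (37.5%). Col27a1 (chr4:63214004-63334991), a fibrillar collagen best known from cartilage, had a lowest, median and highest normalized count of 56.7, 154 and 485 in TG livers, against 291, 1033 and 1371 in 2-month WT livers. All 6 TG libraries lay below the young median and 4 lay below every young library. Its log2 fold change was -2.45 ± 0.42, adjusted p = 0.00199. Within batches it was -2.38 in batch A and -2.62 in batch B. Among males alone it was -2.54, adjusted p = 0.0126. The call held with each of the 17 libraries left out in turn and was lost within a single batch (adjusted p = 0.0695 for A and 0.0718 for B). Young WT libraries were split by sex: the 4 male libraries had 1201, 866, 1199.7 and 1371, and the 2 females 291 and 326. The term for females against males over all groups was -1.40 with adjusted p = 0.311, and the only TG female had the lowest TG value, 56.7.

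Col5a3 (chr9:20770050-20815067), the third chain of collagen V, which sets the width of fibrils, had 65.9, 168 and 402 in TG livers, against 283, 560.1 and 1507 in 2-month WT livers. The TG library highest for Col5a3, replicate 6, was the only one inside the young range. The log2 fold change was -2.14 ± 0.42, adjusted p = 0.0045, with -2.79 in batch A and -1.15 in batch B. It was called with each library left out in turn and among males alone (adjusted p = 0.019), and it was lost in batch B alone (adjusted p = 0.193). Batch A males carried the highest young values, 1506 and 1507, beside 349 and 283 in batch A females and 509 and 611 in batch B males. The sex term was -1.04 with adjusted p = 0.487.

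Col1a1 (chr11:94936224-94953042), the major chain of collagen I, had 33.5, 84.3 and 192 in TG livers, against 168, 273 and 472 in 2-month WT livers. Again 5 of 6 TG libraries lay below every young library, and TG replicate 1 lay inside the young range. The log2 fold change was -1.88 ± 0.46, adjusted p = 0.02, with -2.27 in batch A and -1.33 in batch B. This call depended on single libraries: the adjusted p was 0.0553 without TG replicate 2, 0.0749 without TG replicate 3 and 0.0565 without 2-month WT replicate 2. Among males alone it was 0.121.

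**Figure D2:**
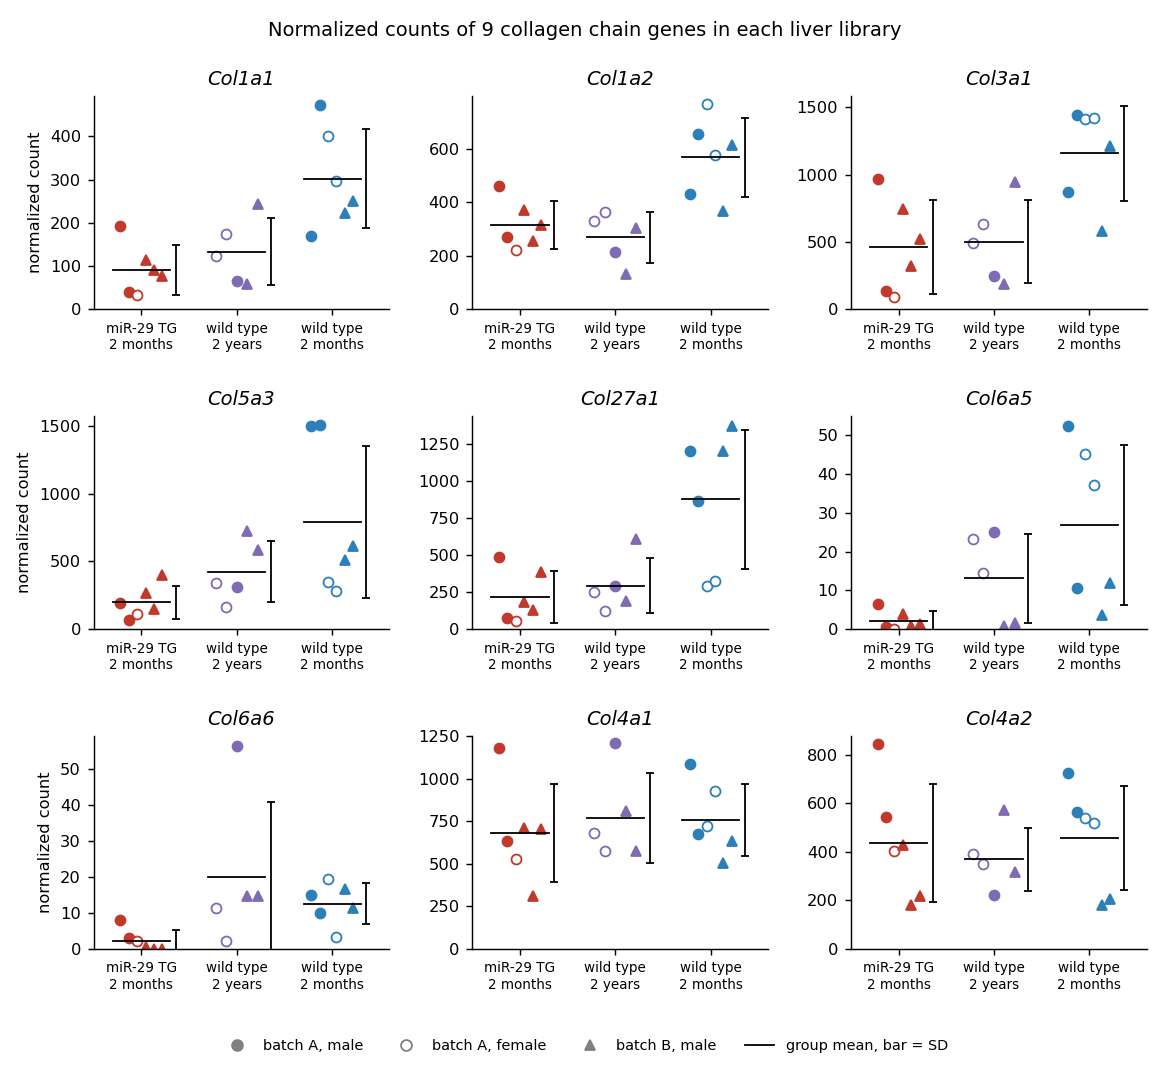
Normalized counts (vertical axes, linear, each starting at 0) of 9 collagen chain genes in the 17 libraries, by group, with marker shape for batch and filling for sex. Lines are group means with SD bars beside them, cut at 0: for Col27a1 and Col5a3 the young WT females lie well below the young batch A males, and TG replicate 1 is the highest TG library of Col1a1, Col3a1, Col4a1 and Col4a2.

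The partners of Col1a1 in fibrils did not pass the test. Col3a1 (chr1:45311538-45349706) had 87.3, 419 and 970.3 in TG livers, against 579, 1315 and 1446 in 2-month WT livers, a log2 fold change of -1.75 ± 0.56, adjusted p = 0.0715. It passed the threshold when TG replicate 1 was left out (adjusted p = 0.0203), when 2-year replicate 4 was left out (0.0435) and with library weights (0.0178), and its within-batch values were -2.50 in batch A and -0.75 in batch B. Col1a2 (chr6:4504814-4541544), which forms collagen I with Col1a1, had 220.2, 292 and 463 in TG livers, against 367, 595 and 767 in 2-month WT livers, with -0.79 ± 0.27, adjusted p = 0.0884. It passed without 2-year replicate 4 (adjusted p = 0.0416). All 6 TG libraries lay below the young median for both Col3a1 and Col1a2, and 4 lay below every young library. The authors' deposited table, which has its own test, lists both as lower, with adjusted p = 0.0303 for Col3a1 and 0.0227 for Col1a2.

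The ratio of the collagen I chains was set beside these values. Col1a1 over Col1a2 was 0.145 to 0.414 in TG livers (median 0.276), 0.309 to 0.795 in 2-year WT livers (median 0.433) and 0.392 to 0.718 in 2-month WT livers (median 0.520). The highest TG ratio, in replicate 1, was the only one above the lowest young ratio, which was that of WT replicate 1. This ratio was chosen after the values were seen and was given no test. It does not change with the scaling of a library.

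The remaining fibrillar chains were not called. Col5a1 and Col5a2, the usual partners of Col5a3 in collagen V, had log2 fold changes of -0.18 ± 0.21 and 0.08 ± 0.41 (adjusted p = 0.689 and 0.942). Col5a3 over Col5a1 ran from 0.406 to 3.14 in TG livers, 0.921 to 7.16 in 2-year WT livers and 0.999 to 8.10 in 2-month WT livers. Col11a2, a cartilage fibril chain, was above the young median in all 6 TG libraries, at 41.9, 49.6 and 168 in TG and 20.7, 31.6 and 48.4 in 2-month WT livers, with 1.05 ± 0.49, adjusted p = 0.223. The authors' deposited table lists Col11a2 as higher, with adjusted p = 0.026.

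Summed over the class, the fibrillar signal was 890 to 2857 normalized counts in TG livers (median 1601), 1521 to 3026 in 2-year WT livers (median 1765) and 3114 to 5276 in 2-month WT livers (median 4026). No TG or 2-year library reached the lowest young library, and this held within each batch: 890 to 2857 in TG against 3475 to 5276 in 2-month WT liver in batch A, and 1286 to 1999 against 3114 to 4276 in batch B. The highest TG sum was that of replicate 1. The basement membrane sums overlapped, at 551 to 2166 in TG, 933 to 1481 in 2-year WT and 734 to 1872 in 2-month WT livers. These sums are set by the most abundant chains and were given no test.

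**Figure D3:**
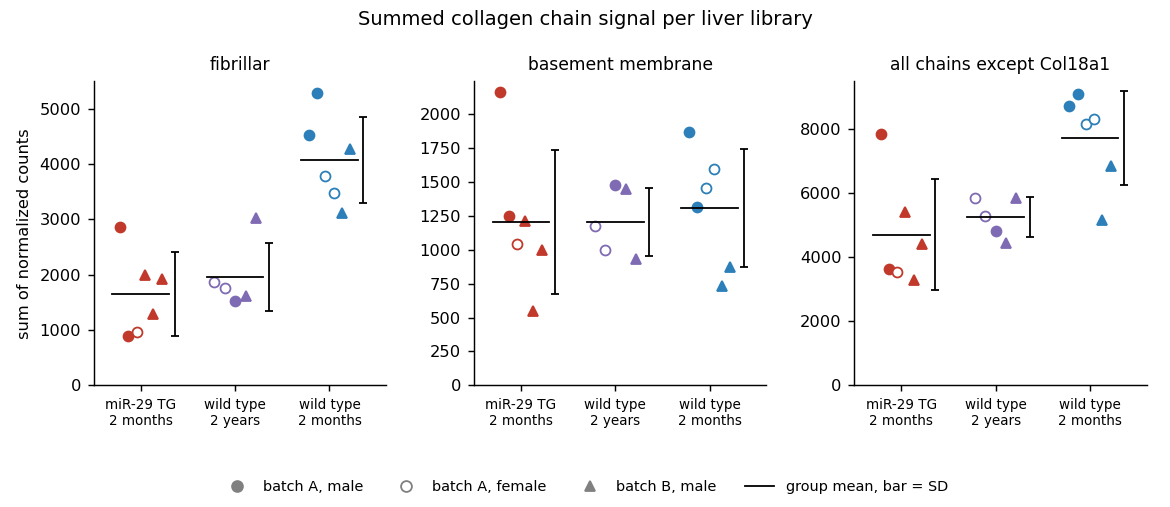
Sum of normalized counts (vertical axis, linear from 0) of the fibrillar chains, the basement membrane chains and all chains except Col18a1 in each library, with group means and SD bars. On this scale every TG library (at most 2857) and every 2-year library (at most 3026) lies below the lowest young WT library (3114) for the fibrillar chains. The basement membrane sums overlap.

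No basement membrane chain of the 5 measured was called. Col4a1 and Col4a2 make the collagen IV network found in most basement membranes, including the sinusoidal matrix of liver. Col4a1 (chr8:11198423-11312826) had 308, 669.6 and 1179.7 in TG livers, against 507, 698 and 1087 in 2-month WT livers, a log2 fold change of -0.20 ± 0.25, adjusted p = 0.706. Col4a2 (chr8:11312805-11449287) had 179, 416 and 846 in TG livers, against 182, 529 and 725 in 2-month WT livers, with 0.03 ± 0.35, adjusted p = 0.972. For both chains the groups overlapped over nearly their whole range, and both were lower in batch B (batch term -0.66, adjusted p = 0.0429 for Col4a1, and -0.94, adjusted p = 0.0396 for Col4a2). The genes lie head to head and share 22 annotated bases, where reads cannot be told apart without strand. Col4a3 and Col4a4, chains of kidney basement membrane, had -0.51 ± 0.38 and 0.17 ± 0.59. Col4a5, their partner, was above the young median in all 6 TG libraries (37.7 to 124 in TG against 13.2 to 116 in 2-month WT livers), with 0.81 ± 0.35, adjusted p = 0.184.

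Of the 15 other chains, 2 fell, and both belong to collagen VI, which forms beaded filaments around cells. Col6a5 (chr9:105856078-105960643) had 0, 1.08 and 6.32 in TG livers, against 3.64, 24.5 and 52.4 in 2-month WT livers, a log2 fold change of -2.74 ± 0.72, adjusted p = 0.0301, with -3.88 in batch A and -1.48 in batch B. Col6a6 (chr9:105687809-105828160) had 0, 1.4 and 7.89 in TG livers, against 3.22, 13.1 and 19.5 in 2-month WT livers, with -2.40 ± 0.62, adjusted p = 0.0284 and -1.42 in batch A and -3.68 in batch B. These are the rarest chains called, and 4 TG libraries for Col6a5 and 5 for Col6a6 lay below every young library. Each call was lost when any of 6 libraries was left out (TG replicates 2 and 3 and 2-month WT replicates 1, 3, 4 and 6 for Col6a5, up to an adjusted p of 0.103; TG replicates 2, 5 and 6 and 2-month WT replicates 3, 5 and 6 for Col6a6, up to 0.078). With a pseudocount of 10 the Col6a6 value was -0.91 and its call was lost (adjusted p = 0.0812). With group as the only term both calls were lost (adjusted p = 0.0564 for Col6a5 and 0.0845 for Col6a6). Among males alone Col6a5 was not called (adjusted p = 0.181), while Col6a6 was (0.0341). The 2 genes are neighbours on chromosome 9, separated by 27917 bases.

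The abundant collagen VI chains showed no call. Col6a1, Col6a2 and Col6a3, which form the common trimer, had log2 fold changes of 0.38 ± 0.31, -0.38 ± 0.33 and 0.07 ± 0.50. Col6a1 over Col6a2 was 1.29 to 3.05 in TG livers, 1.20 to 2.46 in 2-year WT livers and 0.634 to 1.74 in 2-month WT livers. Among the fibril-associated chains, which coat fibrils and change how they pack, Col14a1 had -0.53 ± 0.36, adjusted p = 0.439, Col16a1 -0.53 ± 0.49, adjusted p = 0.592, Col12a1 0.48 ± 0.46, adjusted p = 0.601 and Col20a1 0.55 ± 0.51, adjusted p = 0.593. Col14a1 was below the young median in all 6 TG libraries, but its within-batch values were -1.14 in batch A and 0.30 in batch B.

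Col15a1 and Col18a1, chains of the basement membrane zone, are close relatives. Col15a1 had 47.4, 62.8 and 109.5 in TG livers, against 80.6, 128 and 154 in 2-month WT livers (-0.77 ± 0.29, adjusted p = 0.13), with 4 TG libraries below every young one. Col18a1 had 8784, 22334 and 30565 in TG livers, against 9093, 22683 and 28376 in 2-month WT livers (0.19 ± 0.30, adjusted p = 0.778), and the groups overlapped over nearly their whole range. The authors' deposited table lists Col15a1 as lower, with adjusted p = 0.0341. Col8a1, a short network-forming chain of vessel walls, had -1.51 ± 0.53, adjusted p = 0.106; 5 of its 6 TG libraries were at or under 7.45 and TG replicate 1 was at 33.6.

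Some chains pointed the other way without passing. Col7a1, the anchoring fibril chain of epithelia, had 7.01, 27.7 and 38.3 in TG livers, against 2.27, 8.57 and 12.6 in 2-month WT livers, and 5 of 6 TG libraries lay above every young one. Its log2 fold change was 1.48 ± 0.69, adjusted p = 0.225, with 0.76 in batch A and 2.77 in batch B. Col13a1, a transmembrane collagen of cell junctions, had 0.98 ± 0.39, adjusted p = 0.148, and it passed when 2-year replicate 4 was left out (adjusted p = 0.0452). The authors' deposited table lists both as higher, with adjusted p = 0.0133 for Col7a1 and 0.0425 for Col13a1. Col23a1, the other transmembrane chain measured, had -0.36 ± 0.54, adjusted p = 0.765.

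**Figure D4:**
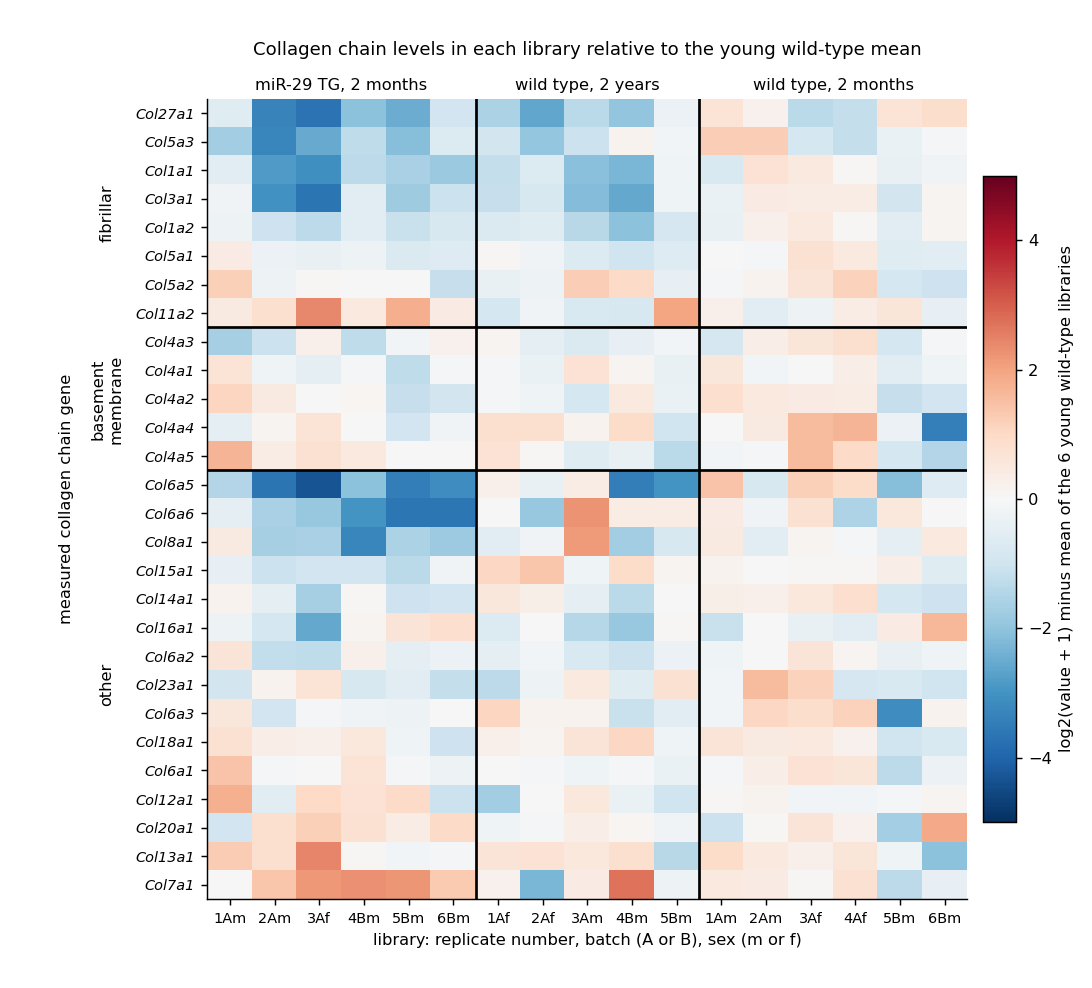
Level of the 28 measured collagen chain genes (rows, by class) in the 17 libraries (columns, by group and batch), as log2(normalized count + 1) minus the mean of the 6 young WT libraries, blue where lower and red where higher. The upper fibrillar rows and Col6a5 and Col6a6 are blue across the TG columns, palest in replicate 1 for all but Col5a3, and the Col7a1 and Col11a2 rows are mostly red there.

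One TG library stood high across the family. TG replicate 1 was the highest of the 6 TG libraries for 18 of the 28 measured chains (64.3%), beside 17% of all tested genes. The 2-month WT replicate 5 was the lowest young library for 13 of the 28 chains, beside 26.4% of all tested genes. Without TG replicate 1 the count of chains that fell was 6. Leaving out other libraries gave 2 without TG replicate 2, 3 without TG replicate 3 or 2-month WT replicate 3 or 6, and 7 without 2-year replicate 4. The count over all 14588 tested genes moved too, from 558 that fell to 668 without TG replicate 1 and 388 without TG replicate 2. It was 410 without TG replicate 3, 423 and 386 without 2-month WT replicates 3 and 6, and 737 without 2-year replicate 4.

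The second comparison set 2-year against 2-month WT liver and asked what age does to the same chains. None of the 28 was called by limma, beside 0.144% of all tested genes (0.0480% lower and 0.0960% higher). At an unadjusted p under 0.05, 5 were lower and none higher, beside 8.73% of all tested genes, and all 5 were fibrillar. The log2 fold change was below 0 for 20 of the 28 chains, beside 50.3% of all tested genes. The deposited table of the authors, which has its own test, calls Col1a2 and Col27a1 lower, beside 111 of its 15814 genes. The median log2 fold change was -0.92 over the fibrillar chains, -0.12 over the basement membrane chains and -0.08 over the others, beside -0.0027 for all genes. Fibrillar medians were -1.11 in batch A and -0.62 in batch B.

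Col1a2 had 332, 363, 213, 132 and 306 in 2-year livers, against 367, 595 and 767 (lowest, median and highest) in 2-month livers. All 5 old libraries lay below all 6 young ones, as did 0.260% of all tested genes, while no chain had all old libraries above the young ones (0.350% of all genes). Its log2 fold change was -1.12 ± 0.28, adjusted p = 0.156, with -1.03 in batch A and -1.24 in batch B, and the authors' deposited table gives -1.13 with adjusted p = 0.00621. Col27a1 had 247, 123, 291, 189.9 and 607 in 2-year livers, with -1.47 ± 0.44, adjusted p = 0.325, and 4 of the 5 were below every young library. The authors' deposited table gives -1.37 with adjusted p = 0.00892 for Col27a1.

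Col1a1 had 122, 174, 65.8, 57.3 and 243 in 2-year livers, with -1.32 ± 0.47, adjusted p = 0.476. Col3a1 had 495, 631, 244, 187 and 949, with -1.40 ± 0.58, adjusted p = 0.535. For both, every old library lay below the young median, while 2-year replicates 2 and 5 reached into the young range. Col5a1 had -0.48 ± 0.22, adjusted p = 0.563, and Col5a3 -0.72 ± 0.43, adjusted p = 0.626 with -1.23 in batch A and 0.22 in batch B. Col4a1 and Col4a2 had 0.09 ± 0.26, adjusted p = 0.923 and -0.12 ± 0.36, adjusted p = 0.927. The age value of Col4a2 differed between batches by 2.02 ± 0.57, the age difference between batches with the smallest p among the chains, which did not pass (adjusted p = 0.106). No chain passed a test of the transgene effect between batches, or of the age effect between batches or sexes. Col15a1 was the chain with the largest positive value, 0.63 ± 0.30, adjusted p = 0.575.

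The third comparison set TG livers at 2 months against WT livers at 2 years. It shares its libraries with the other comparisons and tests whether the transgene and age differences from young WT are unequal. Here 2 of 28 chains fell and none rose, beside 1.84% and 0.713% of all tested genes, together 2.55%. At an unadjusted p under 0.05, 8 differed, 6 lower and 2 higher, beside 15.3% of all genes. Of the 28 values 15 were below 0, beside 47.8% of all genes. No chain had all TG libraries below every old library, or all above, beside 1.14% (lower) and 0.672% (higher) of all genes. Col15a1 had 47.4, 62.8 and 109.5 in TG livers, against 253, 324, 106, 232 and 136 in 2-year WT livers, a log2 fold change of -1.40 ± 0.31, adjusted p = 0.0208, with -1.45 in batch A and -1.35 in batch B. Of the 6 TG libraries 5 lay below every old one. The call was lost without any one of TG replicates 3 and 5 and 2-year replicates 1 and 2, with adjusted p of 0.0508 to 0.0677. Col6a6 had 0, 1.4 and 7.89 in TG livers, against 11.4, 2.28, 56.6, 14.7 and 14.8 in 2-year WT livers, with -2.82 ± 0.66, adjusted p = 0.0301. That call was lost without any one of 7 libraries (TG replicates 2, 5 and 6 and 2-year replicates 1, 3, 4 and 5), up to an adjusted p of 0.102. With a pseudocount of 10 it was also lost (adjusted p = 0.0511). Col6a6 had a TG mean of 2.28 and entered the tests through wild-type libraries, which favoured a fall here too.

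No fibrillar chain was called between TG and 2-year WT liver, and the class median was -0.29. The values were -0.56 ± 0.48, adjusted p = 0.636 for Col1a1, 0.33 ± 0.28, adjusted p = 0.625 for Col1a2 and -0.36 ± 0.59, adjusted p = 0.834 for Col3a1. Col5a3 had -1.42 ± 0.44, adjusted p = 0.105 and Col27a1 -0.98 ± 0.45, adjusted p = 0.303; both passed only with library weights (adjusted p = 0.0212 and 0.0424). Col11a2 passed as higher in TG liver without 2-year replicate 5 (adjusted p = 0.0404). A value that misses the threshold does not show equal levels.

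The miR-29 site content of the family was then set beside the values, as a description. A match to the seed was found in 17 of the 28 measured chains (60.7%), against 1989 of 12927 tested genes with an annotated 3′ UTR (15.4%). By class the matches were in 6 of 8 fibrillar chains, all 5 basement membrane chains and 6 of 15 others, and over all 44 chains in 25. In the transgene comparison 3 of the 17 chains with a match fell (Col1a1, Col5a3 and Col27a1, 17.6%) and 2 of the 11 without one (Col6a5 and Col6a6, 18.2%). Col6a5 and Col6a6 had TG means of 2.16 and 2.28 normalized counts and entered the tests through wild-type libraries, which favoured a fall. These percentages therefore cannot show whether a match made a difference. The median log2 fold change was -0.38 with a match and 0.19 without. Over all tested genes those medians were 0.04 with a match and -0.0008 without, and 2.67% and 4.06% fell.

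**Figure D5:**
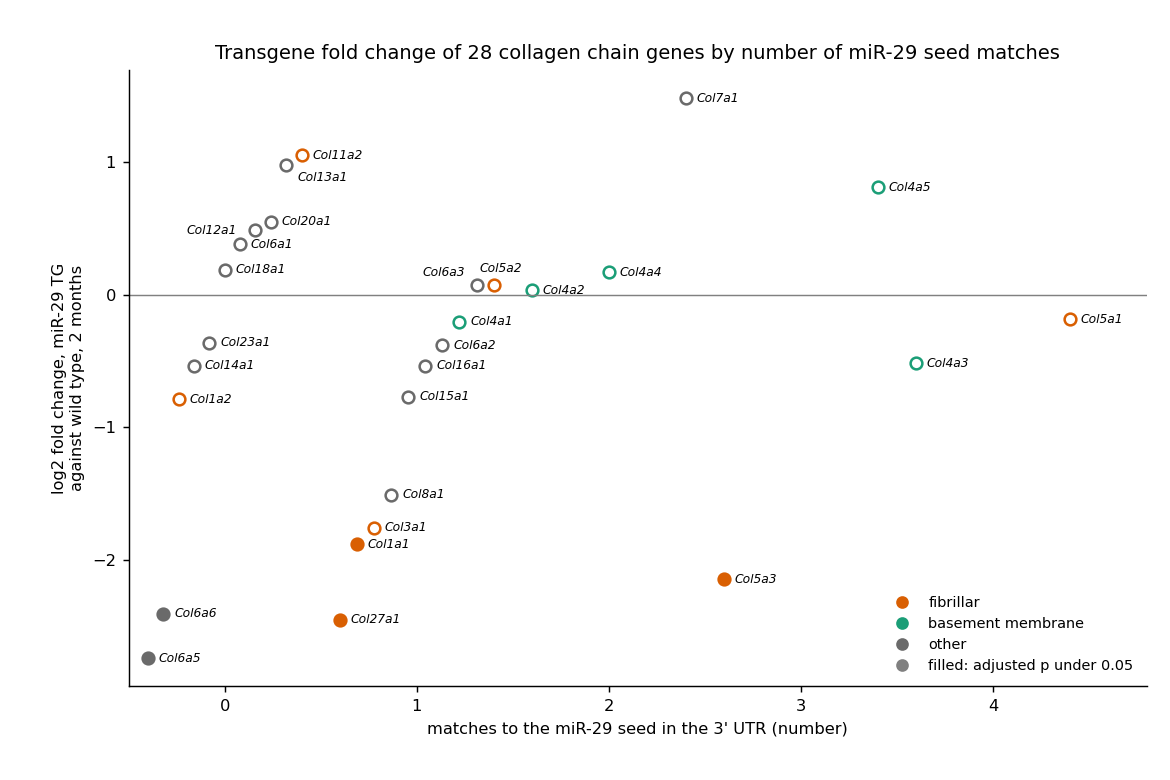
Log2 fold change of TG against WT liver at 2 months (vertical axis) for the 28 measured collagen chain genes by the number of miR-29 seed matches in the longest annotated 3′ UTR (horizontal axis, points spread sideways around each whole number to keep them apart), coloured by class and filled where the adjusted p is under 0.05. Called chains occur at 0, 1 and 3 matches, and Col5a1 and Col4a3, with 4 matches each, lie at -0.18 and -0.51.

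Chains with more matches did not always have the lower values, and no measure of order was computed. Col5a1 and Col4a3 had the most, 4 each, with log2 fold changes of -0.18 and -0.51, neither called. Col4a5 had 3, all followed by A, and was at 0.81. Col7a1 had 2 and was at 1.48. Col1a2 had no match in its annotated 3′ UTR and was at -0.79. Within the fibrillar class the 6 chains with a match had a median of -1.82, and the 2 without, Col1a2 and Col11a2, lay at -0.79 and 1.05. A match says only that the 7 letters are present, and pairing or binding was not measured. Other forms of site were not looked for, so a chain with no match is not shown to lack a site.

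Genes that fold, modify and cut procollagen were looked at as a list. Of 31 measured maturation genes 1 rose with the transgene, Colgalt1, which adds galactose to collagen hydroxylysine (0.78 ± 0.19, adjusted p = 0.0192), and none fell. Over all tested genes 2.89% rose and 3.83% fell. Serpinh1, the collagen chaperone, had -0.71 ± 0.45 (adjusted p = 0.402). With age none of the 31 was called, and between TG and 2-year WT liver the procollagen N-proteinase Adamts2 was the one gene called (1.83 ± 0.37, adjusted p = 0.0135, higher in TG). The median of the list was -0.02 for the transgene and -0.10 for age.

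Of 12 measured breakdown genes 5 were called with the transgene, beside 6.71% of all tested genes. Mmp8 and Mmp9, matrix proteases of neutrophils, and Mmp14, a membrane-bound collagenase, rose. The log2 fold change was 6.03 ± 0.90 for Mmp8 (adjusted p = 0.00061) and 0.94 ± 0.24 for Mmp14 (adjusted p = 0.0275). Mmp8 averaged 384 normalized counts in TG, 18.8 in 2-year WT and 2.28 in 2-month WT livers. It entered the tests through TG libraries, which favoured a higher value in TG liver. Mmp9 averaged 162 normalized counts in TG and 12.9 in 2-month WT livers (adjusted p = 0.0224). Mmp15, another membrane-bound protease, fell (-2.39 ± 0.35, adjusted p = 0.000513), as did Mrc2, which takes up collagen for degradation (-1.23 ± 0.33, adjusted p = 0.0335). With age none of the 12 was called. Between TG and 2-year WT liver Mmp8 was higher (3.96 ± 0.95) and Mmp15 lower (-1.53 ± 0.37), both at adjusted p = 0.0343.

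Markers of the cells that make fibrillar collagen were set beside these values. None of 15 stellate cell markers was called in any comparison. With the transgene 3 of the 15 had an unadjusted p under 0.05, all higher, beside 21.2% of all tested genes in either direction. The summed level of the 15 was 15266 to 21638 normalized counts in TG, 8323 to 15664 in 2-year WT and 11751 to 17924 in 2-month WT livers. Of 10 portal and activated fibroblast markers Postn, a matrix protein of activated fibroblasts, rose (1.62 ± 0.40, adjusted p = 0.0235), while the median of the list was -0.52. At an unadjusted p under 0.05, 4 of the 10 were lower with the transgene, none of them called: Lum (-1.09 ± 0.36, adjusted p = 0.084), Entpd2 (-0.80 ± 0.27, adjusted p = 0.0915), Thy1 (-0.81 ± 0.32, adjusted p = 0.145) and Mfap4 (-1.20 ± 0.50, adjusted p = 0.171). These 4 were named after their values were seen, and Pdgfra was higher at that level (0.92 ± 0.31, adjusted p = 0.0841). Over all tested genes 21.2% passed that level with the transgene, in either direction. With age 3 of the 10 were lower at an unadjusted p under 0.05 (Eln, Lum and Mfap4) and none was called, beside 8.73% of all tested genes at that level in either direction. The summed level was 1731 to 2508 in TG, 917 to 1837 in 2-year WT and 1327 to 3089 in 2-month WT livers. None of 3 mesothelial markers was called (sums of 72.7 to 246, 71.0 to 198 and 48.0 to 178). No marker of these lists was at 0 in all libraries.

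Among markers of other cells, calls with the transgene were mostly on the neutrophil list, beside 6.71% of all tested genes called. Of 10 neutrophil markers, among them Mmp8, 9 rose (Mmp8, S100a8, S100a9, Cxcr2 and Retnlg with the smallest p), with sums of 450.5 to 48419 in TG, 102 to 2251 in 2-year WT and 30.1 to 498 in 2-month WT livers. Markers that are low in wild-type liver, such as Mmp8, entered the tests through TG libraries, which favoured a rise. How many others on this list did so was not examined. The TG libraries with the lowest neutrophil sums were replicates 2 (450.5) and 1 (676), and they had the lowest and the highest fibrillar sum of the group, 890 and 2857. These are 2 of the 6 TG libraries, and a relation between neutrophil and fibrillar sums was not tested. Endothelial markers rose in 2 of 11 cases (Stab2 and Vwf, with sums of 4446 to 9585, 7487 to 9661 and 3460 to 8741), and macrophage markers in 1 of 9 (Marco, with sums of 7949 to 66957, 11446 to 39896 and 11217 to 18817). The cholangiocyte marker Spp1, 1 of 7, fell, with sums of 802 to 1773 in TG, 990 to 2215 in 2-year WT and 1689 to 3979 in 2-month WT livers, and the hepatocyte marker Serpina1c, 1 of 7, fell. The part of these cells in the collagen results was not tested.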

How the data were processed

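The submitters' processing notes list STAR 2.5.3a, Salmon 0.6.0, DESeq2 and mm10, without saying what each was used for; annotation release and strand setting are not given in the sources used here. Liver gene levels came as a signal that the authors deposited under the name of DESeq2 normalized counts, 1 column for each library, each mapped by its title. These columns summed to 28077001 to 44543936. Whole reads could not be recovered (44.0% to 67.6% of low values fell within 0.1 of a multiple of the commonest low value), so depth is unknown. The authors' deposited comparison tables hold log2 fold changes, p-values and a test statistic (a score that was not used), with a batch and sex correction per the tables' names, and served as an alternative.

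R 4.3.3 and limma 3.58.1 (a linear model with a trended empirical Bayes step) tested genes whose mean was at least 10 on log2(normalized value + 1), which understates changes of low genes. Terms were group, batch and sex, all 17 libraries shared 1 estimate of the spread, and p-values were two-sided and Benjamini-Hochberg adjusted over all tested genes with a threshold of 0.05. Called genes are said to rise or fall. Means ± SD are unadjusted, and fold changes carry ± SE. The script was tested on simulated data. No pair of libraries was identical. Coordinates are from GENCODE M21; 3′ UTRs are the exonic bases after the stop codon of protein-coding transcripts, with a minimum of 30 bases. Exonic overlap with other genes reached 5.65% of a measured chain (Col4a3).

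Values are given for every chain called in the transgene or age comparison and for Col1a1, Col1a2, Col3a1, Col4a1 and Col4a2, for other chains by range or example, and for listed genes that were called. The members, classes and gene lists were chosen with earlier results of these data known. Alternatives were pseudocount, filter, scaling, covariates, batch, sex, weights and leaving out libraries. Figures used matplotlib 3.10.9.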

Additional observations from a re-analysis of the deposited data

Results flagged for a closer look

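In groups of 5 or 6 libraries, 1 library was far from the others of its group in 12 of the 84 groups of a chain that were examined. The nominal rate of the rule is 1 in 20, or 4.2. That rate holds for normally distributed values, and the rule was applied to normalized counts without a log, so an excess is not shown. All flagged values but the Col13a1 value of 2-year replicate 5 were at the high end. TG replicate 1 accounted for 4 of the 12. It had 124 normalized counts of Col4a5 (others 37.7 to 64.7), 270.1 of Col5a1 (121 to 169), 244 of Col5a2 (46.7 to 109.7) and 33.6 of Col8a1 (1.67 to 7.45). TG replicate 3 had 514 of Col13a1 (85.7 to 224).

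Among 2-year WT libraries, replicate 5 had 125 of Col11a2 (others 16.7 to 27.3) and the lowest Col13a1, 35.4 (134 to 165). Replicate 3 had 56.6 of Col6a6 (2.28 to 14.8) and 111 of Col8a1 (6.72 to 21.7), and replicate 4 had 52.6 of Col7a1 (0.682 to 9.67). Among 2-month WT libraries, replicate 6 had 349.5 of Col16a1 (51.1 to 146) and 101 of Col20a1 (7.37 to 41.5).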

How the results depend on the processing

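Single chains had 2465 values under alternatives (29 or 30 per chain for the transgene and for age, 28 or 29 for TG against 2-year WT liver). Of these, 48 lost a call and 18 gained one. No called value changed sign. Of the values that were not called, 146 changed sign, 136 of them by less than the spread between replicates and 10 by more, all 10 in batch B alone (among them Col14a1 with the transgene, 0.30, Col5a3 and Col4a2 with age, 0.22 and 1.13, and Col6a5 against 2-year WT, 0.35). With those 10, 26 values not called moved by more than that spread. Transgene calls lower, 5 as reported, became 3 with a mean of at least 50 (which by construction removes Col6a5 and Col6a6), with group as the only term, with the replicate block and among males, 2 in batch A, 1 in batch B and 8 in the authors' deposited table. Leaving out 1 library gave 2 to 7. With pseudocount 10 Col6a6 lost its transgene call (adjusted p = 0.0812). Transgene calls higher, 0 as reported, became 3 in the authors' deposited table and 0 to 1 on leaving out 1 library. Over all genes those calls were 421 as reported, 1101 of 15714 in the authors' deposited table and 266 to 574 on leaving out 1 library. Age calls lower, 0 as reported, became 1 with library weights (Col1a2, adjusted p = 0.0416) and 2 in the authors' deposited table, and leaving out 1 library gave 0 to 0. Over all genes those calls were 7 as reported, 25 with library weights and 111 of 15814 in the authors' deposited table. Between TG and 2-year WT liver, calls lower, 2 as reported, became 1 with pseudocount 10, with a mean of at least 50, with group only, with the replicate block and among males, 0 in each batch alone and 4 with library weights, and 0 to 2 on leaving out 1 library. Calls higher there, 0 as reported, became 1 with library weights and 0 to 1 on leaving out 1 library. Over all genes, calls lower in this comparison were 268 as reported, 274 with pseudocount 10, 209 with a mean of at least 50 and 102 with group only. They were 190 with the replicate block, 121 among males, 139 in batch A, 27 in batch B and 487 with library weights. Calls higher over all genes went from 104 to 246 with library weights. The cause of these moves was not tested. Replicate numbers do not pair the libraries: deviations of 16 same-numbered pairs correlated at -0.316 to 0.384, and 8 pairs differ in sex or batch. Under the block Col1a1 and Col6a5 lost their calls (adjusted p = 0.0738 and 0.0762). Depth is unknown, so chains with few counts carry the least certain values.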
